A study of Mus musculus with 18 samples.

Results

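Metallothioneins, zinc transporters and the zinc-sensing factor Mtf1 were followed in mouse liver as it regrew after loss of most of its mass. The 7 genes described here, Mt1, Mt2, Mtf1, Slc39a14, Slc39a4, Slc30a1 and Slc30a10, were taken by name from the 17180 genes listed in any table. RNA came from liver of C57BL/6 mice collected 0.5, 2, 4, 24, 48, 72, 120 or 168 h after 2/3 partial hepatectomy, and from mice that had a sham operation. Each of the 9 groups held 2 libraries, each made by pooling the RNA of 3 mice, so n = 2 pools per group throughout. No genetic change or drug is named for any group, and the labels call the sham mice only a control, with no time of collection.

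Zinc inside a cell is mostly bound. Metallothioneins are small cysteine-rich proteins that hold zinc and copper, and their genes are among the liver genes most readily induced by metals, glucocorticoids and interleukin-6. Mtf1 is the factor that senses free zinc and binds metal response elements near the metallothionein genes and Slc30a1. Proteins of the SLC39 family bring metal ions into the cytosol: Slc39a14, also called ZIP14, carries zinc, manganese and iron into hepatocytes, and Slc39a4, also called ZIP4, is best known for zinc uptake in the gut. Proteins of the SLC30 family move metal out of the cytosol: Slc30a1, also called ZnT1, exports zinc across the cell surface, whereas Slc30a10 is known chiefly as an exporter of manganese.

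The promoters of the storage genes and of the zinc exporter are shown because Mtf1 is known to act there, and the data below set their transcripts side by side. Each run covers 250 bases before to 30 bases after a start given by RefSeq on GRCm38.p6, plus strand, 5′ to 3′. Capitals mark the metal response core, searched as TGCGCNC or TGCACNC on both strands. Mt1 and Mt2 lie side by side on chromosome 8, Slc30a1 and Slc30a10 on chromosome 1, Mtf1 on 4, Slc39a14 on 14 and Slc39a4 on 15. The Mt1 window is chr8:94178839-94179118, that of Mt2 chr8:94172368-94172647 and that of Slc30a1 chr1:191906531-191906810.
Mt1: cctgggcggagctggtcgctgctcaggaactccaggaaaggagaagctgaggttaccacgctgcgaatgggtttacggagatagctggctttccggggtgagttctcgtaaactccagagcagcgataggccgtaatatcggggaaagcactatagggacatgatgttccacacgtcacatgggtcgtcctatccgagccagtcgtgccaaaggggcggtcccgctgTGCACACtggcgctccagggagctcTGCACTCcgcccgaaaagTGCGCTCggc
Mt2: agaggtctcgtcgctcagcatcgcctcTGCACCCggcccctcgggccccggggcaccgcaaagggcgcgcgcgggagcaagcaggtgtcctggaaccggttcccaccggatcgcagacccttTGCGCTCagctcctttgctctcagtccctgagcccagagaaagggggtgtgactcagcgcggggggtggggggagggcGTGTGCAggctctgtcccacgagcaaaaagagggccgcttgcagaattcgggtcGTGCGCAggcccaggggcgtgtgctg
Slc30a1: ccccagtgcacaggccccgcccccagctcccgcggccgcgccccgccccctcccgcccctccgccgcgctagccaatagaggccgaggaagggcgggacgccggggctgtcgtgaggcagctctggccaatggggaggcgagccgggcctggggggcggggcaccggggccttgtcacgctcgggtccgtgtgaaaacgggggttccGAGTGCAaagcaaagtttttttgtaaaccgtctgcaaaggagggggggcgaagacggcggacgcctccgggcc
The Mt1 window held 3 cores, beginning 23 bases before the start used and at bases 3 and 21 after it. RefSeq lets the Mt1 gene begin at base 94178883 and Slc30a1 at 191906697, inside these windows but before the starts used. Positions and counts thus hold for the starts used, and cores outside the windows were not counted. Whether transcription in these livers began at the starts used, before them or after them was not tested, so the counts do not rank the genes. The Mt2 window held 4 and that of Slc30a1 held 1. The Slc30a10 window held 3, of which a pair overlapped on opposite strands, and the Mtf1 window held 0. Among 32851 promoter windows of the same length, 24.1% held at least 1 core, 1.73% at least 3 and 0.405% at least 4. With the looser TGCNCNC the counts were 3 for Mt1, 6 for Mt2, 1 for Slc30a1, 3 for Slc30a10 and 0 for Mtf1, against 48.5% of windows with at least 1 and 0.155% with at least 6. RefSeq windows were matched for 5 of the 7 genes and not for Slc39a14 and Slc39a4. A match of letters is a description and does not show binding.

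Each library held between 7.78 and 9.16 times 1000000 reads, so that 3 reads made at most 0.386 CPM (counts scaled to a total of 1000000 reads). The table of sham replicate 2 ended at 52 reads and that of 0.5 h replicate 1 at 157 reads, and a gene unlisted there lies anywhere up to 6.49 or 19.1 CPM. Of the 7 genes, 6 were listed in all 18 libraries and were tested there among 4906 genes. Mtf1 was unlisted in 0.5 h replicate 1 and was tested in the other 17 libraries among 8026 genes, where the spread of the lone 0.5 h library was taken from the other groups. Genes unlisted in both were tested in the 16 complete libraries among 12199. Levels are CPM after TMM scaling, as mean ± SD. Changes are log2 fold changes ± SE. The test was edgeR's quasi-likelihood F test, and a gene was called when its Benjamini-Hochberg adjusted p was below 0.05. Spread between single mice is not seen by these p-values, which rest on the spread of pooled samples. Scaling by library totals alone was added after the data had been seen, and with it the median gene moved by -0.37 at 4 h against sham, by -0.17 at 2 h, 0.11 at 24 h and 0.15 at 48 h. It moved by 0.48 between 4 and 24 h and -0.20 between 2 and 4 h, so changes below are relative to the median gene. The hepatocyte gene Alb had 473834 to 1193573 reads in the complete libraries.

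All but Mtf1, that is 6 of the 7, varied over the 9 groups, where 68.6% of all genes did so in 18 libraries and 58.3% in 17 libraries. Against sham, 4 of the 7 were called at 4 h, 3 at 48 h, and 1 each at 2, 24, 72 and 168 h. Of all genes in 18 libraries, 35.7% were called at 4 h and 36.8% at 48 h, and fewer at the remaining times. At 2 h the share was 8.76%, at 24 h it was 17.3%, at 72 h it was 12.6%, and by 168 h it stood at 5.75%. Counts of 7 genes this small are near those shares at most times. At 0.5 and 120 h edgeR called 0 of the 7, with 0.204% and 0.775% of all genes called. At an unadjusted p of 0.05 it would take 1 of the 7 at each of these times, Slc30a1, and DESeq2 and limma-trend called 0. Between neighbouring times, 1 of the 7 changed at 2 h against 0.5 h (13.3% of all genes), 2 at 4 h against 2 h (14.7% in 18 libraries, 12% in 17), 4 at 24 h against 4 h (34.5%) and 3 at 48 h against 24 h (14.5%). edgeR called 0 of the 7 in the later steps, 72 h against 48 h (3.67% of all genes), 120 h against 72 h (1.16%) and 168 h against 120 h (0%). At an unadjusted p of 0.05 these steps had 2, 2 and 3 of the 7, and DESeq2 and limma-trend called 0 in each. For the last step 163 of 4906 genes had an unadjusted p below 0.05, DESeq2 called 1 gene and limma-trend 0.

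Both storage genes were far higher 4 h after hepatectomy than after a sham operation. Mt1 stood at 3325 and 4676 CPM in the pools at 4 h, against 62.0 and 389 CPM in the sham pools, a log2 difference of 4.15 ± 1.06 (edgeR, adjusted p = 0.00833). Mt2 stood at 2749 and 3241 CPM at 4 h, against 44.9 and 222 CPM in sham, a difference of 4.49 ± 1.11 (edgeR, adjusted p = 0.00663). Both pools at 4 h lay far above both sham pools for either gene. The call rests on sham replicate 1, the lower sham pool: without it the difference was 3.36 for Mt1 (edgeR, adjusted p = 0.0682) and 3.75 for Mt2 (edgeR, adjusted p = 0.0635).

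At 2 h Mt1 was at 1651 and 1860 CPM and Mt2 at 1438 and 1706.5 CPM, with every pool above both sham pools. edgeR did not call these differences, 2.96 ± 1.01 for Mt1 (adjusted p = 0.0947) and 3.56 ± 1.06 for Mt2 (adjusted p = 0.0542). DESeq2 called both (adjusted p = 0.0433 and 0.0122), as did limma-trend (adjusted p = 0.0462 and 0.0292). Already at 0.5 h Mt1 was at 444 and 519 CPM and Mt2 at 351 and 379 CPM, above both sham pools but 1.09 ± 0.95 and 1.45 ± 0.98 on the log2 scale (edgeR, adjusted p = 0.519 and 0.418).

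By 24 h both genes had come down. Mt1 stood at 243 and 552 CPM at 24 h, against 3325 and 4676 CPM at 4 h, a step of -3.33 ± 1.02 (edgeR, adjusted p = 0.0226). Mt2 stood at 131 and 355 CPM at 24 h, against 2749 and 3241 CPM at 4 h, a step of -3.62 ± 1.06 (edgeR, adjusted p = 0.0178). The fall was not called for either gene with unlisted genes taken as 0 (adjusted p = 0.0764 for Mt1 and 0.061 for Mt2) or without 24 h replicate 1 (0.112 and 0.0957). For Mt1 it was also lost without 4 h replicate 1 (0.0665) or 24 h replicate 2 (0.0523).

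From 48 h on the pools of a group disagreed, except at 72 h. Mt1 was at 326 and 1082 CPM at 48 h, 148 and 160.1 CPM at 72 h, 90.8 and 1058 CPM at 120 h and 35.7 and 117 CPM at 168 h. Mt2 was at 232 and 794 CPM at 48 h, 87.2 and 94.0 CPM at 72 h, 57.1 and 779 CPM at 120 h and 15.998 and 67.0 CPM at 168 h. Against sham these differences ran from -1.56 to 1.64 for Mt1 and from -1.68 to 1.94 for Mt2, and edgeR called none of them (adjusted p from 0.14 to 0.74). Both Mt2 pools at 48 h lay above both sham pools, and every other late group overlapped with sham. The lowest Mt1 and Mt2 values of the course were both in 168 h replicate 1.

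In order of mean level, Mt1 ran from 4 h (4001 ± 956 CPM) and 2 h (1756 ± 148 CPM) through 48 h, 120 h, 0.5 h, 24 h and sham (226 ± 231 CPM) to 72 h and 168 h (76.3 ± 57.5 CPM). The pools of 4 h lay above those of 2 h, those of 2 h above those of 48 h, and those of 72 h above those of 168 h, while the neighbours in between overlapped. Mt2 had the same order and the same gaps, with 2995 ± 348 CPM at 4 h and 41.5 ± 36.0 CPM at 168 h.

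**Figure D1:**
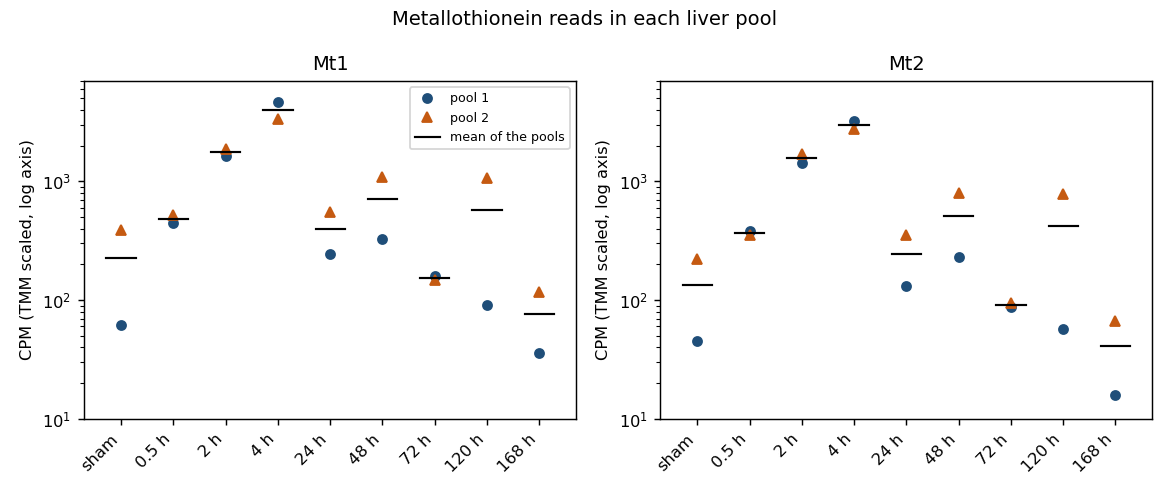
CPM of Mt1 and Mt2 on a log axis in each of the 18 liver pools, by group from sham to 168 h, with circles for pool 1, triangles for pool 2 and bars for their mean. The pools at 2 and 4 h sit together and high, while those of sham, 48 h and 120 h lie far apart.

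Per length of transcript the metallothioneins reached the top of the liver transcriptome. Mt1 had 6138 and 4525 RPKM (reads per kilobase of gene and 1000000 reads) at 4 h, which gave it ranks 16 and 18 among all genes of those libraries. It had 109 and 665 RPKM in sham, where it ranked at 595 and 104. Together Mt1 and Mt2 took 0.606% and 0.482% of the reads at 4 h, against 0.011% and 0.0609% in sham and 0.00523% in the leanest library, 168 h replicate 1. Mt2 stayed below Mt1 per length in all 18 libraries, with a ratio between 0.47 in 168 h replicate 1 and 0.962 in 2 h replicate 2. The paralogs share sequence, so the split of reads between them is uncertain, and reads of Mt2 and of the antisense gene Gm45774, whose exons overlap, cannot be told apart, as no source used here gives the strand.

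In sham and at 24, 48, 120 and 168 h the pools of a group differed more in Mt1 and Mt2 than in nearly any other gene. Among the sham pools Mt1 was 6.25-fold higher in replicate 2 than in replicate 1, and 3 of 4906 genes differed more, Orm2, Lcn2 and Saa3, all products of the acute phase response. At 120 h Mt2 was 13.6-fold and Mt1 11.6-fold higher in replicate 2, the largest gaps of all 4906 genes. At 168 h the gaps were 4.14-fold for Mt2 and 3.26-fold for Mt1, at 48 h 3.42-fold and 3.32-fold, and at 24 h 2.71-fold and 2.27-fold. Replicate 2 was the higher pool in each of these groups. At 0.5, 2, 4 and 72 h the log2 gap of either gene lay between -0.49 and 0.25. The gap of -0.49 was that of Mt1 at 4 h, with replicate 1 higher, and lay below the 5th percentile of all genes (-0.44).

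Slc39a14 did not share most of these gaps. Its log2 difference between sham pools was -0.04 and between 168 h pools -0.11, where Mt1 had 2.64 and 1.70. At 48 h it was 2.24-fold higher in replicate 2, with 26 of 4906 genes differing more, and at 120 h 1.49-fold. Of the 9 groups, the sign of the pool difference matched that of Mt1 in 7 for Mt2, 6 for Slc39a14, 5 for Slc39a4, 4 for Slc30a10 and 3 for Slc30a1. How often other genes matched was not counted. Some differences were minute, as for Slc30a1 at 168 h (-0.0025), so these counts do not rank the genes. The SD of the log2 gap over all genes ran from 0.242 in sham to 0.390 at 24 h. Among the genes with the 6 largest gaps at 120 h were also the chemokine Cxcl1, Igtp, Serpina4-ps1 and Lcn2. Those at 48 h were Saa3, Tifa, Cyp26b1, Steap4, Bcl6 and Mup17. At 0.5 h the largest gaps were those of Saa2, Saa1, Cxcl1, Lcn2 and Orm2, from -3.98 to -2.41 (log2, replicate 2 minus replicate 1). Mt1 differed by 0.23 and Mt2 by -0.11 between the same pools. In sham Cxcl1 was among the 6 at -2.13, opposite in sign to Mt1. Only genes listed in sham replicate 2 (down to 52 reads) and in 0.5 h replicate 1 (down to 157 reads) were ranked. Genes scarce in either pool were left out, so the signs of the largest gaps in sham and at 0.5 h depend in part on the listing.

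**Figure D2:**
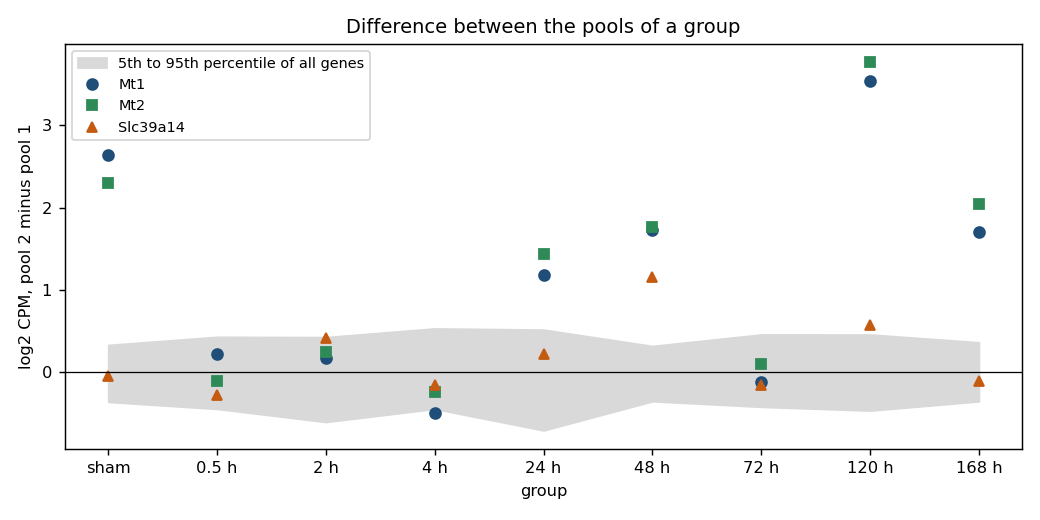
Log2 CPM of pool 2 minus pool 1 within each group for Mt1, Mt2 and Slc39a14, with the grey band from the 5th to the 95th percentile of 4906 genes. Mt1 and Mt2 lie above the band in sham and at 24, 48, 120 and 168 h, reaching 3.54 and 3.77 at 120 h. At 4 h Mt1 lies just below the band.

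The zinc sensor itself moved little. Mtf1 had 21.9 and 24.9 CPM at 4 h, 16.1 and 16.7 CPM at 2 h, 21.1 CPM in the listed library at 0.5 h, and 20.6 and 20.7 CPM in sham. Its group means ran from 16.4 ± 0.41 CPM at 2 h to 23.4 ± 2.15 CPM at 4 h, and it did not differ among the groups (edgeR, adjusted p = 0.161). Against sham its log2 differences lay between -0.33 and 0.18 with SE up to 0.18, and edgeR called none (adjusted p from 0.24 to 0.969).

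Mtf1 rose at 4 h against 2 h by 0.51 ± 0.15 (edgeR, adjusted p = 0.045), and the pools of the groups did not overlap. That call was lost in 13 of 17 fits that left out 1 library, with adjusted p up to 0.239, and under RLE factors, DESeq2 and 4 other settings. By totals alone, Mtf1 differed among the 9 groups (edgeR, adjusted p = 0.0456). With 114 to 232 reads a library the counts behind it are small. The order of its means was 4 h, 0.5 h, 24 h, sham, 120 h, 48 h, 168 h, 72 h and 2 h. The lower pool at 4 h lay below the higher pools at 48 h (22.4 CPM) and 120 h (22.1 CPM), so 4 h did not stand clear of the other groups, whereas both pools at 2 h lay below every other pool. Exons of 1110065P20Rik overlap Mtf1 on the opposite strand.

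The importer Slc39a14 was, like the metallothioneins, highest at 4 h and lower again at 24 h. Its sham pools differed 1.03-fold and its 4 h pools 1.11-fold, while at 0.5, 2 and 72 h they differed by more than those of Mt1 or Mt2. It stood at 984 and 1096 CPM at 4 h and 461 and 616 CPM at 2 h, against 152 and 157 CPM in sham. The rise was 2.75 ± 0.30 at 4 h (edgeR, adjusted p = 2.03e-05) and 1.80 ± 0.29 at 2 h (edgeR, adjusted p = 0.00188). All pools at both times lay above both sham pools, and both calls held without any one library and under every other setting tried.

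Step by step, Slc39a14 rose by 1.43 ± 0.29 at 2 h against 0.5 h (edgeR, adjusted p = 0.00626; 0.0596 without 0.5 h replicate 2). It rose by 0.95 ± 0.29 at 4 h against 2 h (edgeR, adjusted p = 0.0418), a call lost in 12 of 18 fits that left out 1 library and by totals alone (0.73; edgeR, adjusted p = 0.0615). At 24 h it stood at 182 and 212 CPM, a step of -2.40 ± 0.30 against 4 h (edgeR, adjusted p = 5.73e-05). Unlike the steps before it, this fall held in every fit run.

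At 48 h Slc39a14 was higher than sham by 0.95 ± 0.29 (edgeR, adjusted p = 0.0214), with 183 and 411 CPM at 48 h against 152 and 157 CPM in sham. One pool made that call, for without 48 h replicate 2 the difference was 0.26 (edgeR, adjusted p = 0.456). It was also lost without either sham pool. In the 16 complete libraries and with unlisted genes taken as 0 it was not called either (edgeR, adjusted p up to 0.13). The remaining group means were 200 ± 26.6 CPM at 0.5 h, 210 ± 15.3 CPM at 72 h, 201 ± 56.0 CPM at 120 h and 142 ± 7.62 CPM at 168 h. In order of level 4 h and then 2 h stood clear of the groups after them, 48, 72, 120, 0.5 and 24 h overlapped with their neighbours, and sham and 168 h came last, each below the group before it.

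Slc39a4, the other importer, was lowest at 24 h. It stood at 30.8 and 44.9 CPM at 24 h, against 68.8 and 71.7 CPM in sham, a difference of -0.89 ± 0.19 (edgeR, adjusted p = 0.00759). Both pools at 24 h lay below both sham pools. The call was lost without sham replicate 1 (adjusted p = 0.0508), with only those groups in the fit and in the 16 complete libraries (adjusted p up to 0.0614).

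Before that low point Slc39a4 had 56.9 ± 4.32 CPM at 2 h and 52.9 ± 11.4 CPM at 4 h, which edgeR did not call (-0.30 ± 0.19 and -0.41 ± 0.19, adjusted p = 0.429 and 0.115). Scaled by totals alone the difference at 4 h was -0.79 (edgeR, adjusted p = 0.00342). At 48 h it was back at 59.4 ± 3.96 CPM, a step of 0.65 ± 0.19 against 24 h (edgeR, adjusted p = 0.0396) that was lost in 5 of 18 fits without 1 library. From 72 h its means lay between 67.5 and 81.5 CPM, beside 70.2 ± 2.02 CPM in sham. The order of its means was 168 h, 0.5 h, sham, 72 h, 120 h, 48 h, 2 h, 4 h and 24 h, with gaps only between 0.5 h and sham and between 120 h and 48 h.

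The zinc exporter Slc30a1 was called lower than sham at 48 and 168 h. It stood at 19.2 and 21.3 CPM at 48 h, against 32.5 and 34.4 CPM in sham, a difference of -0.72 ± 0.18 (edgeR, adjusted p = 0.00743; 0.0646 at most without 1 library, lost without sham replicate 1 or 48 h replicate 2). At 168 h the pools were at 16.954 and 16.985 CPM, a difference of -0.98 ± 0.18 (edgeR, adjusted p = 0.0185). The later call was lost when any of the 4 libraries compared was left out, with adjusted p up to 0.2, in the 16 complete libraries and with unlisted genes taken as 0 (adjusted p up to 0.0968). Slc30a1 also lay below both sham pools at 0.5, 72 and 120 h. Those differences of -0.39, -0.51 and -0.45 were not called (edgeR, adjusted p = 0.286, 0.0722 and 0.242).

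In the hours when Mt1 and Mt2 were highest, Slc30a1 had 34.8 and 52.3 CPM at 4 h and 34.8 and 39.3 CPM at 2 h. It had 37.5 and 41.6 CPM at 24 h, when Mt1 and Mt2 had come down. All of these pools lay above both sham pools, yet the differences of 0.38, 0.15 and 0.24 were not called (edgeR, adjusted p = 0.106, 0.731 and 0.368). By totals alone Slc30a1 at 4 h was level with sham (edgeR, adjusted p = 0.999). The step at 48 h against 24 h was -0.96 ± 0.18 (edgeR, adjusted p = 0.00459), lost without 48 h replicate 2 (adjusted p = 0.0535) and with only those groups in the fit (0.0602). Its group means ran in the order 4 h, 24 h, 2 h, sham, 0.5 h, 120 h, 72 h, 48 h and 168 h, with no overlap between 2 h and sham, sham and 0.5 h, 72 h and 48 h, or 48 h and 168 h. Exons of the antisense gene 1700034H15Rik overlap Slc30a1.

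Slc30a10, the manganese exporter, was higher at 4 h and lower at 48 and 72 h. It stood at 92.9 and 121 CPM at 4 h, against 55.8 and 72.4 CPM in sham, a difference of 0.74 ± 0.19 (edgeR, adjusted p = 0.00966). That rise depends on the scaling, for by totals alone it was 0.36 (edgeR, adjusted p = 0.133). It was also lost in the 16 complete libraries (adjusted p up to 0.171 over the settings) and without sham replicate 2 or 4 h replicate 2 (adjusted p up to 0.102).

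At 48 h Slc30a10 had 34.4 and 37.6 CPM and at 72 h 29.0 and 40.9 CPM, all below both sham pools. The differences from sham were -0.83 ± 0.20 (edgeR, adjusted p = 0.00628) and -0.87 ± 0.20 (edgeR, adjusted p = 0.0125). Both held under every other setting but were lost without sham replicate 1, with adjusted p up to 0.0743 at 48 h and 0.171 at 72 h, and at 72 h also without 72 h replicate 2. The steps were -0.81 ± 0.19 at 24 h against 4 h (edgeR, adjusted p = 0.0059; 0.165 by totals alone) and -0.76 ± 0.20 at 48 h against 24 h (edgeR, adjusted p = 0.0234).

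The first of these steps was also lost without 4 h replicate 2 or 24 h replicate 2 (adjusted p up to 0.0611) and with only those groups in the fit. The second was lost without 24 h replicate 1 or either 48 h pool (adjusted p up to 0.239), with only those groups in the fit and with unlisted genes taken as 0. By 120 and 168 h Slc30a10 was at 51.4 ± 1.74 and 48.7 ± 3.54 CPM. The order of its means was 4 h, 2 h, sham, 24 h, 0.5 h, 120 h, 168 h, 48 h and 72 h. Pools of 4 h, 2 h and sham did not overlap with one another, those of 24 h overlapped with sham, 0.5 h, 120 h and 168 h, and those of 48 and 72 h lay below all others. Exons of Gm2061 overlap Slc30a10 on the opposite strand.

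**Figure D3:**
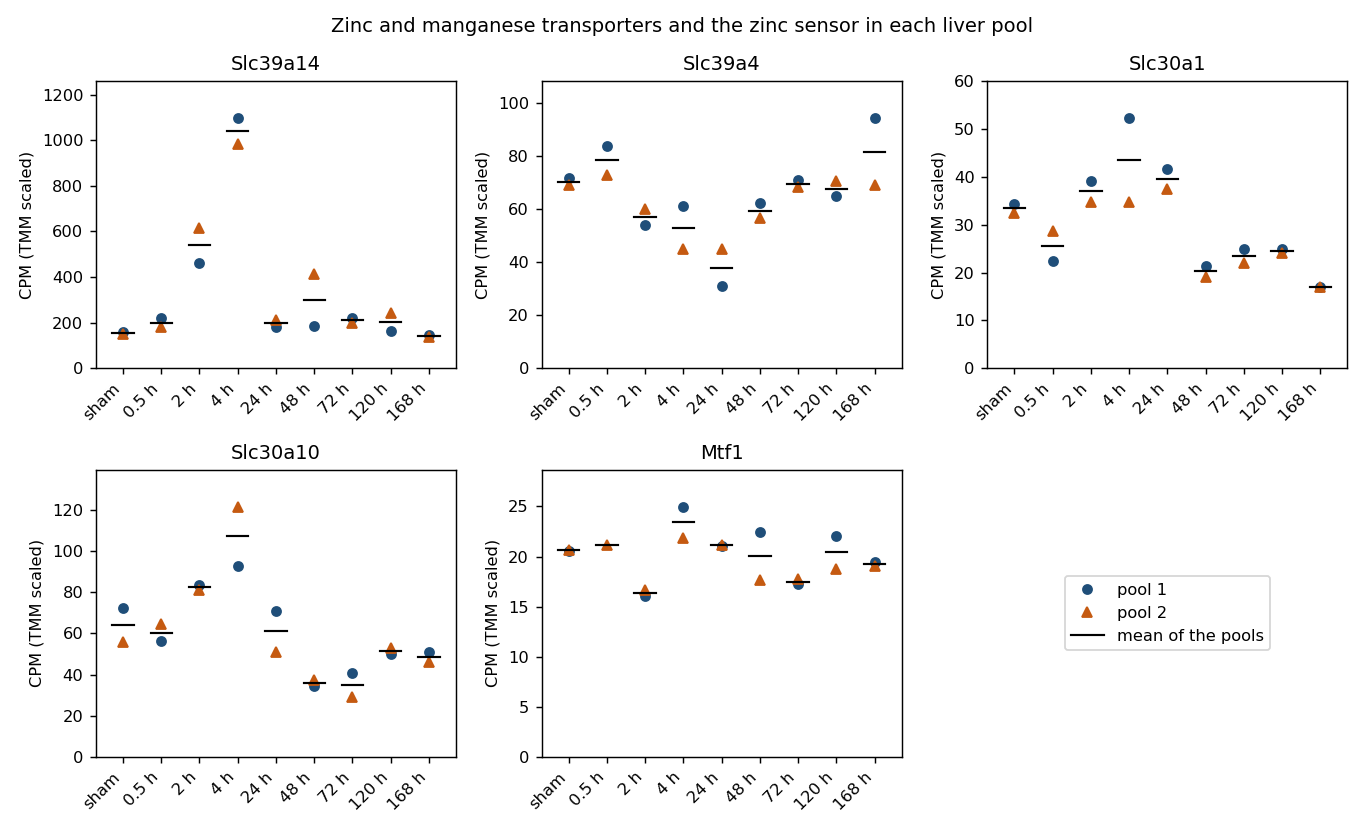
CPM of Slc39a14, Slc39a4, Slc30a1, Slc30a10 and Mtf1 in each liver pool, by group from sham to 168 h on axes that start at 0, with circles for pool 1, triangles for pool 2 and bars for the mean. Slc39a14 peaks at 1040 CPM at 4 h, Slc39a4 has its lowest mean at 24 h, and Mtf1 stays between 16.1 and 24.9 CPM.

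**Figure D4:**
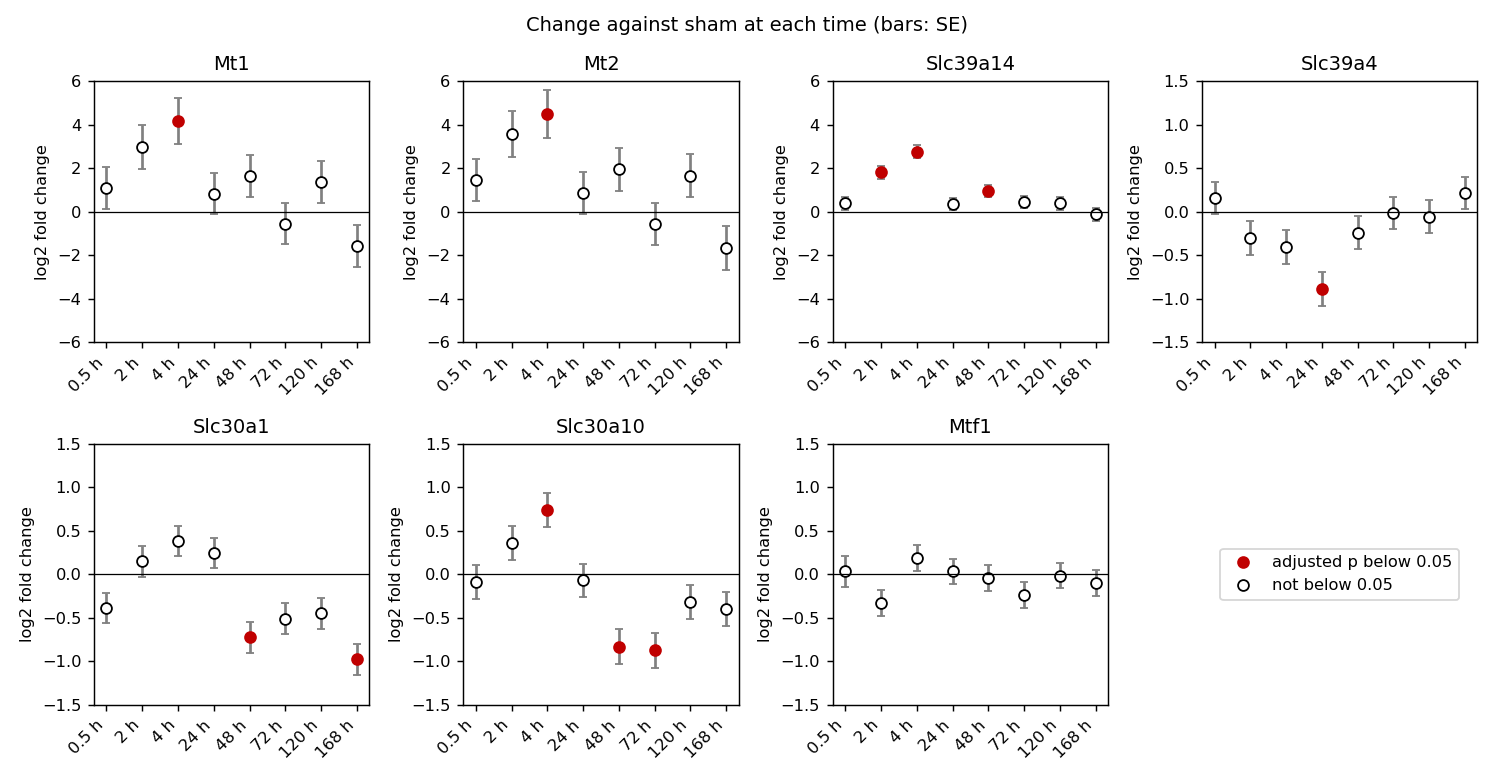
Log2 fold change against sham at 8 times for the 7 genes, with SE bars, filled where the adjusted p was below 0.05 and open elsewhere (the axes of Mt1, Mt2 and Slc39a14 span a wider range). Mt1, Mt2, Slc39a14 and Slc30a10 are filled and above 0 at 4 h, and Slc30a1 and Slc30a10 are filled and below 0 at 48 h.

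Across the 18 libraries, the gene most like Mt1 among 4905 others was Mt2, with a Pearson r of 0.996 in log2 CPM. Lrg1, a secreted acute phase glycoprotein (0.907), Hip1r, a clathrin adaptor (0.906), Ei24 (0.889) and Steap4, a metalloreductase (0.884), came next for Mt1 and the same 4 genes for Mt2. Slc39a14 was most like Tacc2 (0.971), Steap4 (0.965), 4933426M11Rik (0.964), the magnesium carrier Slc41a2 (0.956) and Cep85 (0.953). Steap4 was thus on the list of all 3 genes. Mt1 and Slc39a14 themselves had an r of 0.868.

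The exporters and Slc39a4 had other neighbours. Slc30a10 was most like Tapt1 (0.945), Crp, which encodes C-reactive protein (0.932), and Tgoln1 (0.931), Slc30a1 most like Riok3, Lrrfip1 and Csnk2a1 (0.885 to 0.866), and Slc39a4 most like Mtch1, Cyb5r3 and Scap (0.876 to 0.859). For Mtf1, over 17 libraries and 7089 genes, they were Gtf2e1, Rnf111 and Mettl2 (0.742 to 0.73). Mt1 had r of 0.553 with Slc30a1, 0.540 with Slc30a10 and -0.390 with Slc39a4. The points share their libraries, depth and scaling, and with the groups so far apart r mainly orders genes by likeness of their course.

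Of the other SLC30 genes, which carry zinc mostly into vesicles and the Golgi, 6 of 8 could be tested, and 3 rose at 4 h against sham. The list median was 0.51, beside 0.01 for all genes in 18 libraries. Slc30a4 rose by 1.01 ± 0.25 (edgeR, adjusted p = 0.00876), Slc30a5 by 0.67 ± 0.18 (edgeR, adjusted p = 0.0108) and Slc30a7 by 0.58 ± 0.15 (edgeR, adjusted p = 0.00978), and 31.6% of all genes were called in the 17 libraries in which Slc30a4 and Slc30a7 were tested. Slc30a4 had 23.5 and 28.1 CPM at 4 h, against 11.3 and 14.2 CPM in sham, and its groups did not overlap. These 3 calls were lost by totals alone, where the differences were 0.64, 0.29 and 0.21, and without sham replicate 2 or 4 h replicate 2. In the 16 complete libraries they were lost too (edgeR, adjusted p = 0.0979, 0.214 and 0.144), and with unlisted genes taken as 0 so were Slc30a4 and Slc30a7 (edgeR, adjusted p = 0.887 and 0.959).

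Of the other SLC39 genes 10 of 12 could be tested, and 1 rose at 4 h, Slc39a1, an importer at the cell surface (0.92 ± 0.16; edgeR, adjusted p = 0.000781). Slc39a1 had 194 and 216 CPM at 4 h and 169 and 206 CPM at 48 h, against 105 and 112 CPM in sham, and was also higher at 48 h (0.78 ± 0.16; edgeR, adjusted p = 0.003). The list median at 4 h was -0.09. By totals alone Slc39a1 stayed higher at 4 h (0.54; edgeR, adjusted p = 0.01), but Slc39a7, Slc39a8, Slc39a9 and Slc39a11 were then called lower, by differences from -0.83 to -0.53, so the balance of this family at 4 h depends on the scaling. The calls of 24 h, Slc39a1 higher (0.51 ± 0.16; edgeR, adjusted p = 0.0449) and Slc39a10 lower (-0.95 ± 0.28; edgeR, adjusted p = 0.0467, with 11.7% of all genes called in 17 libraries), were each lost in 13 fits that left out 1 library.

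At 48 h 3 of the 10 SLC39 genes rose, Slc39a1, Slc39a7, a zinc channel of the endoplasmic reticulum (0.42 ± 0.13; edgeR, adjusted p = 0.024), and Slc39a5. Of the 10 genes 5 were tested in 18 libraries and 2 of them called, beside 36.8% of all genes, so the count is near that share. The Slc39a7 call was lost without sham replicate 1 or 48 h replicate 2 (adjusted p up to 0.209), in the 16 complete libraries (edgeR, adjusted p = 0.0583) and with unlisted genes taken as 0 (edgeR, adjusted p = 0.0863). Slc39a5, a zinc importer of gut and pancreas, was scarce and had 3.84 CPM in either pool at 48 h and 3.27 and 4.57 CPM at 72 h, against 0.374 CPM from 3 reads in sham replicate 1. The ratio to that 1 library was 10.3 at 48 h (95% interval 3.38 to 50.8) and 10.6 at 72 h (3.48 to 52.3), intervals that cover counting error only. Slc39a5 is unlisted in sham replicate 2 and may lie anywhere up to 6.49 CPM there, so the rise was not checked in the other sham pool. edgeR called it at 48 h (adjusted p = 0.0118) and at 72 h (adjusted p = 0.0251), with 14.9% and 3.82% of all genes called in 16 libraries, and the call at 72 h was lost without 72 h replicate 2 (adjusted p = 0.137). With unlisted genes taken as 0 neither was called (edgeR, adjusted p = 0.119 at 48 h and 0.213 at 72 h). Over the course, 5 of the 6 SLC30 genes and 5 of the 10 SLC39 genes differed among the groups. Of these 16 genes, all but Slc30a3, Slc39a5 and Slc39a6 were tested in 18 or 17 libraries, where 68.6% and 58.3% of all genes differed, against 42.8% in 16 libraries, so the SLC39 count is not above the share of all genes.

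**Figure D5:**
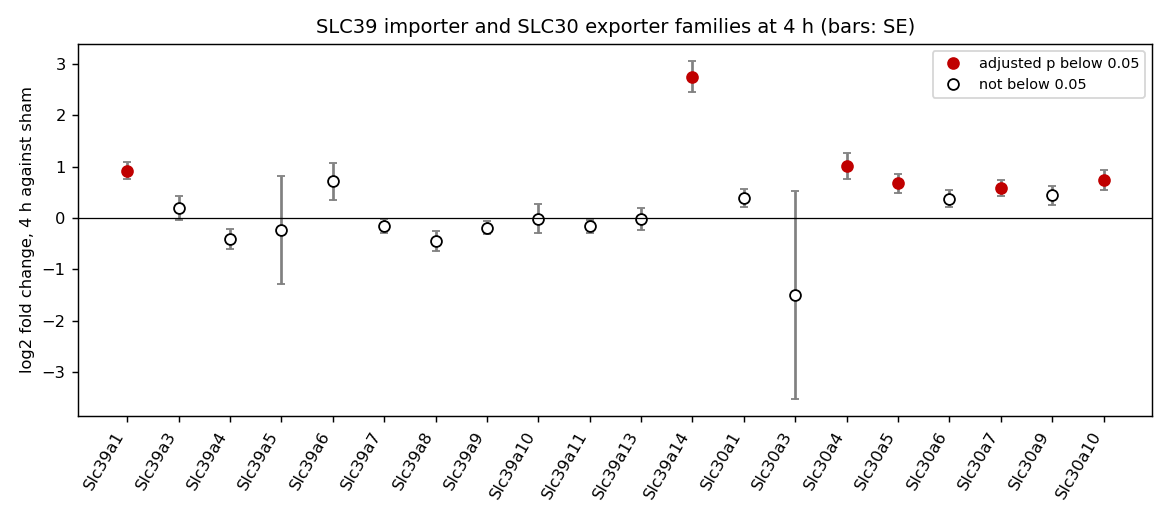
Log2 fold change at 4 h against sham with SE bars for the tested SLC39 importers, on the left, and SLC30 exporters, on the right, filled where the adjusted p was below 0.05. Slc39a14 stands at 2.75, and the next highest, Slc30a4, at 1.01, with TMM scaling.

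Mt3 and Mt4, the metallothioneins of brain and of stratified epithelium, had too few reads to be tested. Among 13 genes of copper handling 2 rose and 2 fell at 4 h. Of these 13 genes 8 were tested in 18 libraries, where 35.7% of all genes were called and 3 of the 8 were, and the rest in 17 (31.6%) or 16 libraries (15.5%), so the copper count is near the share of all genes. Steap4 was higher by 4.95 ± 0.80 (edgeR, adjusted p = 0.000369) and Cp, the plasma copper protein ceruloplasmin, by 1.30 ± 0.27 (edgeR, adjusted p = 0.00234), while Steap3, an iron reductase, was lower by -1.19 ± 0.18 (edgeR, adjusted p = 0.000259). Among 10 genes of manganese and iron transport 4 rose and 1 fell, and 9 of the 10 were tested in 18 libraries (35.7% of all genes called). These were led by Hamp, the iron hormone hepcidin (2.16 ± 0.38; edgeR, adjusted p = 0.000648), and the importer Slc11a2 (1.04 ± 0.20; edgeR, adjusted p = 0.00155), against the exporter Slc40a1 (-1.17 ± 0.18; edgeR, adjusted p = 0.000254).

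Genes that answer to metals and oxidants split at 4 h, with 3 higher and 3 lower of 9. For this and the lists of glucocorticoid and interleukin-6 genes, the share of all genes called at 4 h was 35.7% in 18 libraries, which held most of their genes, 31.6% in 17 and 15.5% in 16. Hmox1, the haem oxygenase, rose by 3.16 ± 0.45 (edgeR, adjusted p = 0.000154) and Txnrd1, a thioredoxin reductase, by 0.64 ± 0.13 (edgeR, adjusted p = 0.00197), while the heat shock gene Hspa1b was lower by -2.68 ± 0.38 (edgeR, adjusted p = 0.000182). Of 13 genes known to be induced by glucocorticoids 9 rose and 1 fell, with Tat, a tyrosine aminotransferase, higher by 1.51 ± 0.19 and Tsc22d3 lower by -1.29 ± 0.23 (edgeR, adjusted p at most 0.00089). Of 17 genes known to be induced by interleukin-6 and STAT3, 16 rose and none fell, with Fgg, Fgb and Fga, the fibrinogen chains, at 2.11, 2.02 and 2.08. The counts of these lists were not recomputed by totals alone. The list medians at 4 h were -0.30 for metals and oxidants, 1.51 for glucocorticoids and 2.02 for interleukin-6, beside 0.01 for all genes in 18 libraries.

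Markers of other cells were followed beside these genes. In whole liver fewer cells of a type and less RNA per cell cannot be told apart. Of 13 neutrophil and monocyte markers 11 were tested in the 16 complete libraries, and 1, Cxcr2, was higher at 4 h (1.5 ± 0.39; edgeR, adjusted p = 0.0191). With 15.5% of all genes called at 4 h in 16 libraries, that count is not above the share. The summed level of these markers in replicates 1 and 2 was 160.0 and 67.4 CPM at 4 h, against 16.3 CPM in sham replicate 1. It was 9.81 and 68.3 CPM at 24 h and 15.5 and 74.4 CPM at 48 h. At 120 h it was 18.1 and 23.9 CPM, and at 168 h 16.2 and 30.2 CPM. At each of these times after hepatectomy the higher pool was also the higher one for Mt1, which differed 11.6-fold at 120 h. At 2 h (71.7 and 49.9 CPM) and 72 h (8.72 and 15.2 CPM) it was the lower one for Mt1. Camp was at 0 in 9 of 16 libraries, Mpo in 6, Elane in 4 and Ngp in 3.

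Of the Kupffer cell and macrophage markers 9 of 10 were tested and 2 were higher at 4 h, with sums of 755 and 941 CPM at 4 h, against 567 CPM in sham replicate 1. In 18 libraries 2 of 7 were called at 4 h, beside 35.7% of all genes, so that count is near the share. The sums of these markers were highest at 168 h, with 1234.5 and 1565 CPM and 6 of 9 called higher than sham. In 18 libraries 5 of 7 were called at that time, beside 5.75% of all genes. At 24 h the sums were 607 and 1238 CPM in replicates 1 and 2. At 120 h the sums were 1032.8 and 1289 CPM. Of other markers at 4 h, 2 of 9 for hepatocytes, 1 of 6 for stellate cells, 2 of 5 for cholangiocytes and 3 of 6 erythroid genes were higher and 0 lower, and of 6 endothelial genes 3 were higher and 1 lower. Beside the 35.7%, 31.6% and 15.5% of all genes called at 4 h in 18, 17 and 16 libraries, nothing is read from these small counts. The lists overlap, so their counts are not separate. Fgb is in the hepatocyte and interleukin-6 lists and Cebpd in the glucocorticoid and interleukin-6 lists. Hamp is in the iron and interleukin-6 lists and Slc39a8 in the SLC39 and manganese lists. Summed hepatocyte markers ran from 104850 CPM at 24 h to 199880 CPM at 2 h. The part of other cells in the levels of the metallothioneins and transporters was not tested.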

How the data were processed

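Liver RNA was sequenced from 18 pools of 3 mice each. Every library has its own deposited table. Its counts are uniquely mapped reads per gene, per the file headers, which also give the library total. The authors' RPKM values equalled the counts over length and total within a relative 0.0001. The deposited coverage is in percent, and its definition is not stated. The submitters' processing notes name mm10. No source used here gives the aligner, the counter or the strand. Per the labels' protocols, poly(A) RNA was enriched and primed with random hexamers.

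The main test on the counts was the quasi-likelihood F test of edgeR 4.0.16 (R 4.3.3), with TMM factors on the library totals of the headers and 1 fit of all groups, so groups outside a comparison share in its spread. Genes needed the CPM of 10 reads in a library of median size, reached in 2 or more libraries, and a sum of 15 reads. A gene was tested in 18 libraries if listed in both tables that end early, in 17 if unlisted in 0.5 h replicate 1 alone, and otherwise in 16. The SE is the absolute log2 fold change over the root of the F statistic. Residual degrees of freedom were 9, 8 and 7, and the coefficient of variation was 0.139, 0.146 and 0.167. Log2 CPM had a prior count of 2. The code was tested on simulated data. Names came from identifiers, of which 16985 of 17180 matched RefSeq.

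The 7 members and the 15 gene lists were chosen with earlier results of these data known. From a list at most 4 genes were named, those with the smallest p against sham among those called, and from the likeness search the 5 most alike for Mt1, Mt2 and Slc39a14 and 3 for the others. Slc39a5, Slc39a8, Slc39a9, Slc39a11 and the genes with the largest gaps between pools were named outside that rule, after their values were seen. Alternatives were DESeq2 1.42.0, limma-trend (limma 3.58.1), RLE factors, no filter, only the 2 groups compared, unlisted genes as 0, the 16 complete libraries, a replicate block, each library left out and, added after the data had been seen, library totals alone. Figures were drawn with matplotlib 3.10.9 in Python 3.11.15 with pandas 2.3.3. PCR copies are not independent molecules, so an interval here covers counting error only.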

Additional observations from a re-analysis of the deposited data

How the results depend on the processing

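The 21 calls of single genes were set beside 566 other fits, of which 481 kept the call, 85 kept the direction but lost the call and 0 reversed. The number of genes called of 7 kept within 1.5-fold of its value among the 9 groups, at 0.5, 4, 48 and 120 h against sham and in the 3 latest steps under every setting other than leaving out a library. The genes behind the count at 4 h were not the same by totals alone, where Slc30a10 was not called and Slc39a4 was called lower. The values that moved follow, and the cause was not tested except where fewer libraries or genes were fitted. At 2 h against sham, 3 genes were called in place of 1 by DESeq2, limma-trend, only the 2 groups compared and the replicate block, and 2 by totals alone. At 24 h the count was 0 with only the 2 groups compared and in the 16 complete libraries. At 72 h it was 2 by DESeq2, and at 168 h 0 with unlisted genes taken as 0 and in the 16 complete libraries.

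At 2 h against 0.5 h it was 2 by DESeq2 and by totals alone and 3 with only the 2 groups compared. At 4 h against 2 h it was 1 with RLE factors and DESeq2, and 0 with unlisted genes taken as 0, in the 16 complete libraries and by totals alone. At 24 h against 4 h it was 2 with unlisted genes taken as 0. At 48 h against 24 h it was 0 with only the 2 groups compared and 1 with unlisted genes taken as 0.

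Leaving out each library in turn, the count ran from 6 to 6 among the 9 groups, 0 to 0 at 0.5 h, 1 to 3 at 2 h, 2 to 4 at 4 h, 0 to 1 at 24 h, 0 to 3 at 48 h, 0 to 2 at 72 h, 0 to 0 at 120 h and 0 to 1 at 168 h against sham. In the steps it ran from 0 to 2 at 2 h against 0.5 h, 0 to 2 at 4 h against 2 h, 2 to 4 at 24 h against 4 h, 0 to 3 at 48 h against 24 h, and 0 to 0 in the 3 later steps.

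The labels do not say whether the replicate numbers pair the samples. Over 36 pairs of groups the correlation of same-numbered deviations ran from -0.546 to 0.53, with 14 over 0.1. These mixed values do not settle it. With the replicate block, 3 genes were called at 2 h against sham in place of 1, and the number called was the same elsewhere, 6 among the 9 groups and 4 at 4 h. Depth limits Mtf1 and the scarce family members most, and 2 pools a group limit all calls.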

Other observations

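Mt1 and Mt2 took 0.184% of the reads in 120 h replicate 2, against 0.0151% in 120 h replicate 1, and Mt1 ranked 39 by RPKM in the one and 421 in the other. The authors' coverage value of Mt1 was between 79.4% and 97.8%, and that of Mt2 between 66.0% and 98.7%. That of Slc39a14 was between 94.4% and 99.3%, and that of Mtf1 between 44.8% and 60.7%.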
